A study of Mus musculus with 18 samples.

Results

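Bone marrow-derived macrophages (BMDMs) lacking IL-10 were pretreated with either of a pair of suppressors before lipopolysaccharide (LPS), and the 2 resulting transcriptomes were compared here directly. The comparison takes the 3 LPS + JQ1 libraries and the 3 LPS + IL-10 libraries, chosen by their sample titles, 6 of the 18 RNA-seq libraries in the series, over all 24485 genes listed. All 18 libraries came from Il10-/- mice on the C57BL/6J background, 12-week-old males per the study's methods, whose marrow was differentiated in medium conditioned by L929 cells. Cells received 500 nM (+)-JQ1 (JQ1 below), 10 ng/mL recombinant IL-10 or no pretreatment for 12 h, then 50 ng/mL LPS or buffer for 4 h, giving 6 groups of 3: unstimulated, JQ1, IL-10, LPS, LPS + JQ1 and LPS + IL-10. The labels give 3 mice without tying them to replicate numbers, so p-values here describe the spread between the 3 samples of a group. The untreated LPS group and the groups without LPS are used for reference levels, and no wild-type library was analysed here.

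IL-10 is the cytokine by which macrophages restrain their own response to bacterial products. It binds a receptor that activates the kinases Jak1 and Tyk2 and the transcription factor Stat3, and the target genes of Stat3 limit the expression of inflammatory genes. JQ1 acts at another level: it occupies the bromodomains of the BET proteins, such as Brd2, which otherwise dock on acetylated histones and bring the elongation kinase complex P-TEFb to genes. LPS, a component of the outer membrane of Gram-negative bacteria, signals through Tlr4 to NF-kB, AP-1 and interferon regulatory factors. The question was which genes the 2 suppressors set to different levels once LPS was present.

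Depth in the 6 libraries ranged from 12946996 to 21828628 expected counts, and the level of 3 counts, taken as the floor, corresponded to 0.137 to 0.232 CPM. Il10, the disrupted gene, was read at a low level in every library: 118, 142 and 164 normalised counts under LPS + JQ1 and 134, 155 and 177 under LPS + IL-10. The LPS group held 63.2 ± 10.8 and the unstimulated group 32.5 ± 5.06 normalised counts of Il10 (mean ± SD, n = 3, as throughout), and without a wild-type library these values do not test the allele. The difference in Il10 between the compared groups did not pass the test (log2 -0.15, SE 0.19, adjusted p = 0.554). All 9 macrophage markers examined were detected in all 6 libraries. They summed to 20149 to 23138 TPM, a length-normalised level, under JQ1 and 16944 to 18562 TPM with IL-10. Lyz2 made up most of that sum (means of 15998 against 10737 TPM) and was higher with JQ1. Adgre1 did not pass the test, and the other markers passed it and were lower with JQ1. Itgam and Fcgr1 were far lower, and Spi1 was at 585 against 1536 TPM. Neutrophil markers summed to 13.3 to 30.1 TPM against 31.5 to 70.0 TPM, with Ly6g, Mpo and Elane at 0 in all 6 libraries. T cell, B cell, NK cell, dendritic cell, mast cell and erythroid markers summed to less than 7 TPM in every library. Stromal markers summed to 2.23 to 7.23 TPM under JQ1 and 19.6 to 20.8 TPM with IL-10, and endothelial markers to 0.04 to 0.28 against 8.37 to 9.89 TPM. The differences in those last sums lay mostly in Pdgfrb (0.50 against 12.9 TPM) and Kdr (0.063 against 8.04 TPM), and the part of other cell types in the results was not tested. In bulk RNA, fewer cells of a type and less RNA per cell cannot be told apart.

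JQ1 and IL-10 left LPS-stimulated macrophages with widely different transcriptomes. Of 14326 genes tested, 7927 (55.3%) differed at an adjusted p under 0.05 in the DESeq2 Wald test. Genes higher with JQ1 numbered 3404 (23.8%), and genes higher with IL-10 numbered 4523 (31.6%). The groups did not overlap, meaning that every library of one lay above every library of the other, at 59.7% of the genes tested. Of the called genes, 7723 (97.4%) had the same direction in all 3 same-numbered pairs, and 99.7% kept their direction in the pair on lane 7. The genes were called on these same libraries, so such shares follow largely from the call and are not separate support. Sequencing lane was balanced between the groups.

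The number of genes on each side depended on how libraries were scaled. The share of called genes that were higher with JQ1 was 42.9% with median-of-ratios scaling, 49.8% with TMM, 57.7% on TPM and 61.2% with total counts. The median log2 difference over all tested genes moved with it, from -0.10 with median-of-ratios scaling to -0.00060 with TMM and 0.16 with total counts. At 240 called genes the sign turned with total counts. None of the 3470 called genes that differed by more than 2-fold (a log2 size over 1) turned.

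Large differences lay mostly on the IL-10 side. Past a log2 size of 1, 1311 genes were higher under JQ1 and 2159 with IL-10. Past 2, the numbers were 353 and 1059, and past 3 they were 105 and 564.

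The side on which a gene fell went with its response to LPS alone. Genes were sorted by the change from the unstimulated to the LPS group, neither of which enters the comparison of the suppressors. Of 2459 LPS-induced genes (log2 change over 1, adjusted p under 0.05, mean of at least 10 normalised counts), 1752 (71.2%) were higher with IL-10, against 31.6% of all genes tested, and 208 (8.46%) were higher with JQ1. With total counts, 1402 were higher with IL-10 and 364 with JQ1. Their median log2 difference was -0.71, and the medians in the 3 same-numbered pairs were -0.74, -0.61 and -0.80. With total-count scaling that median was -0.43, and on TPM it was -0.47. LPS-repressed genes went the other way: of 2661, 1271 (47.8%) were higher under JQ1 and 479 (18%) with IL-10, with a median of 0.47 (0.75 with total counts and 0.37 on TPM). For the 181 genes induced by more than 6 log2 units the median difference was -2.44, and for the 179 repressed by more than 4 it was 0.96. The median moved in steps between these ends in each of the 3 pairs. On log2(TPM + 1) the steps did not hold among repressed genes. The median there was 0.27 for those repressed by more than 4, 0.36 for 2 to 4 and 0.39 for 1 to 2. With total counts the steps held, at 1.24, 0.94 and 0.66 in the same order. Adding 1 TPM narrows differences between low values, and its part here was not tested. Relative to the LPS group, the LPS-induced genes had a median of -0.87 under JQ1 and -0.16 with IL-10. The LPS-repressed genes had 0.65 and 0.13. Both comparisons share the LPS libraries, on which the lists were also chosen, so the sign of these medians follows in part from that choice.

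**Figure D1:**
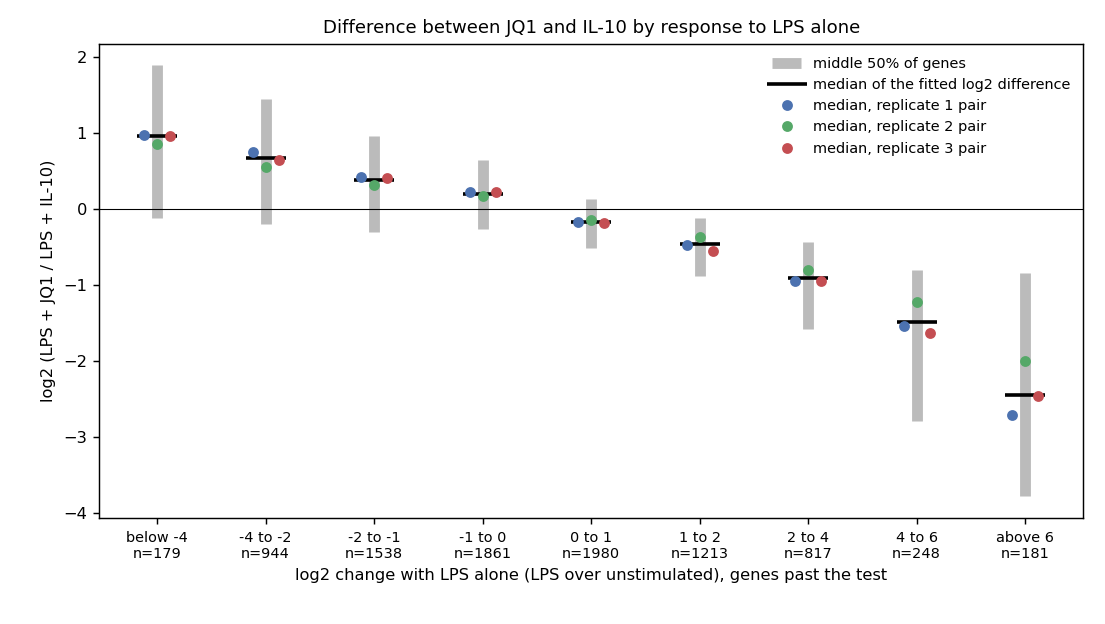
Genes that changed with LPS alone are grouped on the x axis by that log2 change, and the y axis gives the log2 difference between LPS + JQ1 and LPS + IL-10. Black bars mark the median, which falls from 0.96 for the most repressed genes to -2.44 for the most induced. Grey bars mark the interquartile range and coloured points the medians of the 3 same-numbered pairs.

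The genes with the largest differences toward IL-10 were near silent with JQ1. Edn1, which encodes the vasoconstrictor peptide endothelin-1, lies on chromosome 13 (mm9 chr13:42396639-42403358, plus strand, 5 exons). It had 4.42, 5.27 and 6.15 normalised counts under LPS + JQ1 and 4167, 4378 and 5742 under LPS + IL-10. The IL-10 libraries were all above the LPS group (3075 ± 587), and the JQ1 libraries all near the unstimulated group (0.22 ± 0.39). The fitted difference was 907-fold (log2 -9.83, SE 0.42, adjusted p = 8.55e-120), against a JQ1 level close to the floor. Clec4a1, a C-type lectin of myeloid cells on chromosome 6 (mm9 chr6:122871866-122884637, plus strand), had 14.4, 16.9 and 9.85 normalised counts under JQ1 and 2596, 2595 and 4248 with IL-10. It differed 228-fold (log2 -7.83, SE 0.33), and its JQ1 libraries lay below the unstimulated group as well (447 ± 74.8).

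Several leading genes were raised by IL-10 above LPS alone while JQ1 took them below it. March1, a membrane-bound ubiquitin ligase that lowers surface MHC class II, had 8.83, 12.6 and 16.0 normalised counts under JQ1 and 2106, 2777 and 3279 with IL-10, the LPS group standing at 382 ± 102. Il1rn, the secreted antagonist of the IL-1 receptor and a known IL-10 target, had 145, 149.5 and 132 with JQ1, 16639, 21704 and 24234 with IL-10, and 8693 ± 1113 with LPS. It differed 147-fold (log2 -7.20, SE 0.16). Ptges, the terminal enzyme of prostaglandin E2 synthesis, read 36.4, 37.9 and 34.5 against 4589, 5723 and 4651, with 1188 ± 110.3 in the LPS group. Sla, an adaptor protein that damps receptor kinase signalling, read 5.52, 5.27 and 6.15 against 962, 1307 and 1132. Klf7, a Krüppel-like transcription factor, read 15.5, 7.37 and 8.62 against 1004, 1152 and 1021. In none of these 5 genes, which were chosen for their large differences, did the groups overlap.

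Fpr2, a receptor for formylated peptides, and Tarm1, an activating receptor of myeloid cells, also belonged to the 10 leading genes. Fpr2 had 14.0 ± 4.60 normalised counts with JQ1, 2016 ± 655 with IL-10 and 1778 ± 606 with LPS. Tarm1 had 11.8 ± 6.39, 1511 ± 314 and 959 ± 157 in the same order, its IL-10 level being above LPS (log2 0.65, adjusted p = 0.00486). Lad1, an anchoring filament protein, was below LPS with either suppressor, with 8.83 ± 4.08, 914 ± 264 and 1961 ± 448. The log2 differences between JQ1 and IL-10 for these 3 genes were -7.16, -6.98 and -6.72.

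Genes that led on the JQ1 side were mostly ones that LPS lowers. Mknk2, a kinase that phosphorylates the cap-binding factor eIF4E, lies on chromosome 10 (mm9 chr10:80128077-80139038, minus strand, 15 exons). It had 3417, 3081 and 3485 normalised counts under LPS + JQ1 and 143, 98.8 and 108 under LPS + IL-10. The first group stood where the unstimulated libraries did (3218 ± 199) and the second where the LPS libraries did (119 ± 18). The difference was 28.6-fold (log2 4.84, SE 0.11). C2cd2l, a lipid-transfer protein of contacts between endoplasmic reticulum and plasma membrane, had 699, 540.2 and 741 against 56.8, 53.2 and 36.1, with 45.6 ± 3.87 in the LPS and 391 ± 20.2 in the unstimulated group. Klhl21, an adaptor of a ubiquitin ligase, had 404 ± 39.1 against 41.1 ± 3.11, and 615 ± 44.8 unstimulated. The uncharacterised 6430548M08Rik (231 ± 1.64 against 19.7 ± 6.15), the RNA-binding protein gene Habp4 (335 ± 26.5 against 30.8 ± 8.96), Coq10a of the coenzyme Q pathway (224 ± 10.1 against 23.4 ± 5.09) and Fam102a (591 ± 76.1 against 62.3 ± 13.6) were likewise far higher with JQ1.

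Some leading genes on the JQ1 side stood far above their unstimulated level. Of the genes just named, Fam102a (259 ± 26.8 unstimulated), C2cd2l, Habp4 and Coq10a were above it as well, but by less. Cd320, the receptor for transcobalamin-bound vitamin B12, had 243, 277 and 316 normalised counts under JQ1 and 18.9, 18.2 and 16.2 with IL-10, with 42.5 ± 2.09 unstimulated (log2 3.98, SE 0.25, mm9 chr17:33980036-33986719, plus strand). Hspb1, a small heat shock protein, had 197 ± 15.5 against 19.8 ± 6.65 and was at 4.82 ± 2.51 without stimulation. Olr1, a receptor for oxidised low-density lipoprotein, was itself LPS-induced, from 5.14 ± 1.44 to 463 ± 42.1. It reached 2081, 2894 and 2222 under LPS + JQ1 and 273, 239 and 246 under LPS + IL-10, so that JQ1 stood above and IL-10 below LPS alone. In each of these 20 leading genes, chosen for large differences and the same direction in all 3 pairs, the compared groups were separate. Over all genes tested they were separate at 59.7%.

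**Figure D2:**
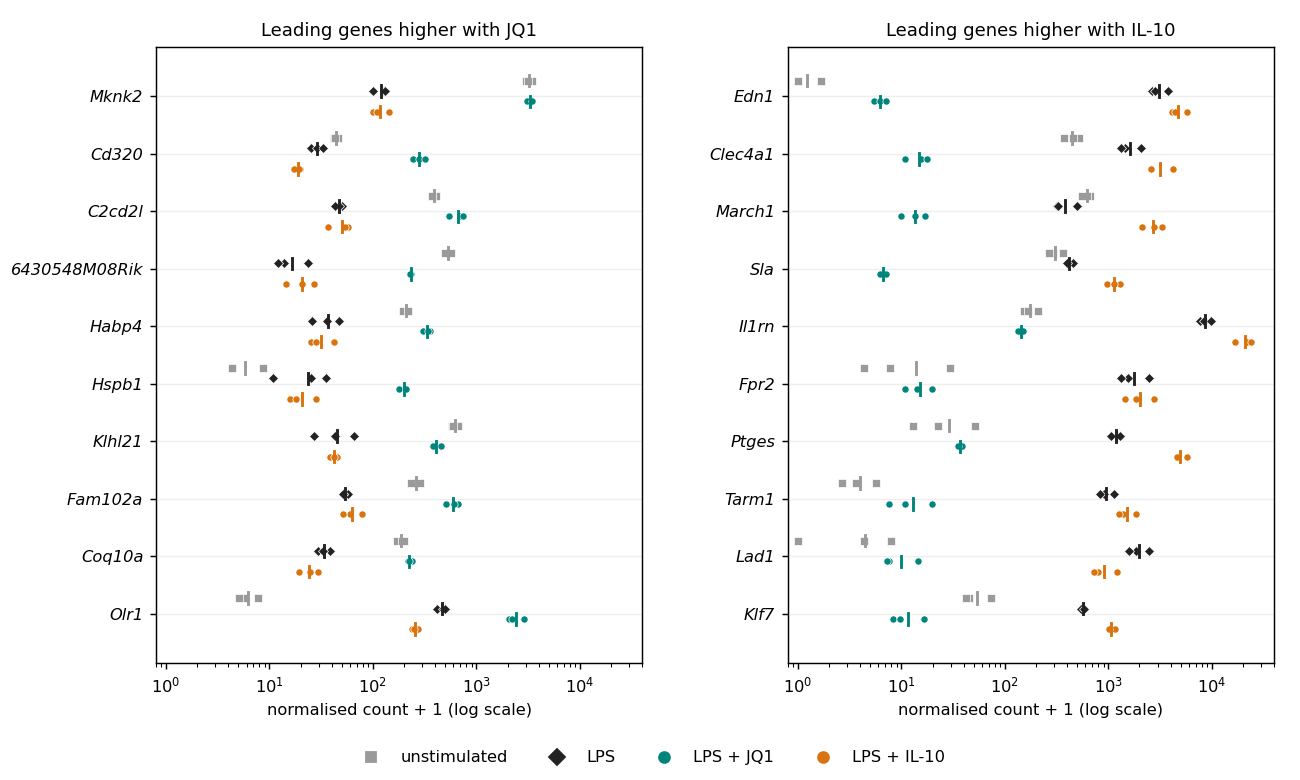
Normalised counts plus 1 on a log axis for the 10 leading genes of each direction, with a point for each library and a bar for each group mean (n = 3). On the left, the LPS + JQ1 libraries of Mknk2 (3081 to 3485) sit beside the unstimulated ones, and on the right those of Edn1 (4.42 to 6.15) sit far below those of LPS + IL-10 (4167 to 5742).

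Sequence upstream of the 2 leading genes of each direction is shown so that the genes that moved furthest apart can be set side by side. Each run holds the 250 bases before the annotated start, 5′ to 3′ on the gene's strand, from RefSeq on GRCm38.p6, which is not the build of the files: Mknk2 chr10:80676294-80676543 (minus), Cd320 chr17:33842841-33843090 (plus, the first listed of 2 starts), Edn1 chr13:42301226-42301475 (plus) and Clec4a1 chr6:122921598-122921847 (plus). Capitals mark matches on either strand to AP-1 (TGANTCA), NF-kB (GGANTTTCC or GGANTTCCC), STAT (TTCNNNGAA), the interferon-stimulated response element ISRE (GAAANNGAA) or the E-box (CACGTG).
Mknk2: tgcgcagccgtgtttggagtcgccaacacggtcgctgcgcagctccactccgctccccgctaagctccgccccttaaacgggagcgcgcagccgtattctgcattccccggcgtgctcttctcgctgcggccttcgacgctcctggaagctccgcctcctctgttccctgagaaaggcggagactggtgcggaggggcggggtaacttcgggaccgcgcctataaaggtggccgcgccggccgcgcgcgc
Cd320: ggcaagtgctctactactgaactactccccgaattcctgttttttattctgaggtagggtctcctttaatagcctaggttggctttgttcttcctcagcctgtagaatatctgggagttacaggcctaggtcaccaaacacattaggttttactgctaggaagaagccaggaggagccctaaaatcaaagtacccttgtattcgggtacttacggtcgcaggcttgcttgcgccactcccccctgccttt
Edn1: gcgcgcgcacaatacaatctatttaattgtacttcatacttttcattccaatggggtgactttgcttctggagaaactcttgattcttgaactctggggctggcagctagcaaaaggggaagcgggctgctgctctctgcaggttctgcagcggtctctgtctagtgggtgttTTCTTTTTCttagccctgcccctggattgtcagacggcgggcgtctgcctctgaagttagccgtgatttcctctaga
Clec4a1: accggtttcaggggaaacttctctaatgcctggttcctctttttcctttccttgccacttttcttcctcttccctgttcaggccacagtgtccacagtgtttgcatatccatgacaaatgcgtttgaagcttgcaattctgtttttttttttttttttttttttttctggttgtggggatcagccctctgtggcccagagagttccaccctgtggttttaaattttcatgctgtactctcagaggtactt
The only match among the 4 windows was an ISRE on the opposite strand 77 bases before the start of Edn1, which overlapped no other motif. Over the 32851 windows of this length in the table, 6.75% held AP-1, 2.10% NF-kB, 7.02% STAT, 7.13% ISRE and 6.02% the E-box. The Mknk2 window held 33 CpG dinucleotides at 68.4% GC, against 5 in Cd320, 9 in Edn1 and 2 in Clec4a1. Motif shares were not compared between the groups of genes, because a promoter entry was found for 79.3% of the genes tested and 79.5% of those higher with IL-10, under the 80% set as the minimum.

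Gene groups were then read as lists, each as a count of its tested members against the 23.8% of all tested genes called higher under JQ1 and the 31.6% called higher with IL-10. In 20 of the 24 lists the median log2 difference was below 0. It turned above 0 with total-count scaling in 5 of those 20, as given where each is described.

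**Figure D3:**
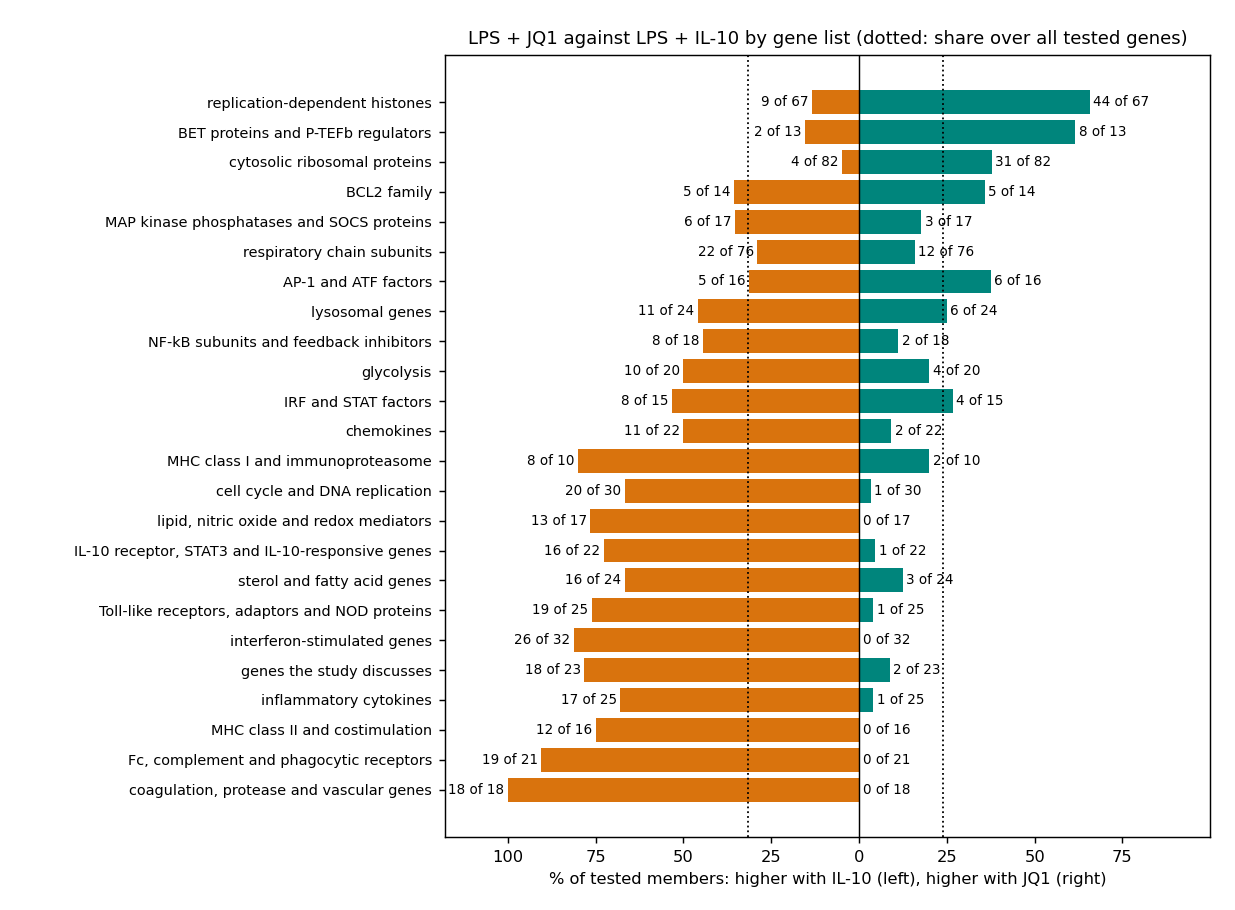
For each gene list, the bar to the left gives the percentage of tested members called higher with IL-10 and the bar to the right the percentage called higher with JQ1, with the counts beside them and dotted lines at the shares over all genes tested (31.6% and 23.8%). All 18 coagulation, protease and vascular genes are on the left, and 44 of 67 histone genes are on the right.

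Inflammatory cytokines were lower with JQ1 than with IL-10. Of 25 tested, 17 were higher with IL-10 and 1, Csf1, was higher with JQ1, with a median of -1.86 (-1.57 with total counts). Il1b, the pyrogenic cytokine released through the inflammasome, had 12917, 11785 and 12666 normalised counts under JQ1 and 91893, 70796 and 79885 with IL-10 (log2 -2.70, SE 0.42, adjusted p = 8.92e-10). It had the highest mean TPM of the cytokines over the 6 libraries, at 1059 under JQ1 and 6007 with IL-10, although under JQ1 alone Tnf was higher (2406 TPM). Il6, an inducer of the acute phase, had 522, 488 and 428 against 5802, 2061 and 4462 (log2 -3.10, SE 0.42). Il27, a subunit of a heterodimeric cytokine that acts on T cells, had 502, 484 and 639 against 8508, 4466 and 4858 (log2 -3.46, SE 0.28). Csf3, which drives granulocyte production, was at 1.10, 0 and 1.23 with JQ1, at or under the floor, and at 60.9, 54.7 and 41.5 with IL-10, at least 15.5-fold lower with JQ1 against the floor averaged over its libraries. In all 4 genes the groups were separate, as they were at 59.7% of all genes tested.

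Tnf and Il12b were not as clearly parted. Tnf had 35589, 34387 and 37076 normalised counts under JQ1 and 72494, 40773 and 44546 with IL-10, replicate 1 of the IL-10 group being the highest. Its difference was small and close to the threshold (log2 -0.56, SE 0.25, adjusted p = 0.0467), and the call was lost with TMM, with total counts and on TPM. It was also lost without LPS + IL-10 replicate 1 (adjusted p = 0.244) and without LPS + JQ1 replicate 1, 2 or 3 (adjusted p = 0.0988, 0.113 and 0.0787). Il12b, the shared subunit of IL-12 and IL-23, had 2172, 2092 and 2574 against 14262, 3537 and 5689. The groups did not overlap, yet the test was not passed (log2 -1.78, SE 1.00, adjusted p = 0.123). It passed when only the 6 libraries were fitted (adjusted p = 0.0126), in edgeR's quasi-likelihood test (adjusted p = 0.000755) and in limma on log2(TPM + 1) (adjusted p = 0.00246). It did not pass with TMM, total counts, the replicate block or log2(TPM + 0.1). Nor did it pass with any library left out (adjusted p = 0.190 to 0.558). Without LPS + IL-10 replicate 1 its log2 difference was -1.02. Among the unstimulated libraries, which share the fit, Il12b had 18.5, 1.69 and 0 normalised counts.

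Csf1, the growth factor of macrophages, went the other way, with 9894, 8420.5 and 9381 normalised counts under JQ1 and 7021, 3256 and 3390.1 with IL-10 (log2 1.02, SE 0.31, adjusted p = 0.00247). Relative to LPS alone (14324 ± 1841), the log2 change was -0.63 with JQ1, which did not pass (adjusted p = 0.070), and -1.65 with IL-10.

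Chemokines split. Of 22 tested, 11 were higher with IL-10 and 2 with JQ1, with a median of -0.92, and 3 more listed gave no adjusted p: Ccl5 (58070 against 74622 normalised counts), Cxcl10 (79288.5 against 96139) and Cxcl13, which was at 0. Ccl12 had 43.1, 43.2 and 32.0 normalised counts with JQ1 against 1142, 803 and 1250.5 with IL-10 (log2 -4.75, SE 0.23). Ccl3, a neutrophil and monocyte attractant and the list's highest gene by TPM, had 46302, 38892 and 42064 against 90019, 62074 and 65989.8 (log2 -0.78, SE 0.13). Ccl8 had 21.6 ± 8.13 against 67.0 ± 20.5. Ccl2, the main monocyte attractant, had 9283, 8967 and 10914 under JQ1 and 3657, 1573 and 2349.6 with IL-10, the groups being separate. Against LPS alone (10379.8 ± 2162) the JQ1 value did not pass (log2 -0.09, adjusted p = 0.83), and the IL-10 value was lower (log2 -2.04). It was 3.85-fold higher with JQ1 (log2 1.94, SE 0.33, adjusted p = 1.62e-08). The second chemokine higher with JQ1 was Ccl7 (log2 1.81), named after its value was seen. Without LPS + IL-10 replicate 1, 5 chemokines were higher with JQ1.

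Genes of the IL-10 receptor and Stat3 pathway were higher with the cytokine itself. Of 22 tested, 16 were higher with IL-10 and 1 with JQ1 (median -1.32, and -1.04 with total counts). Besides Il1rn, they included Stat3, with 4642, 4741 and 4803 normalised counts under JQ1 and 10008, 9279 and 9027 with IL-10 (log2 -1.0, SE 0.09), with 9431 ± 409.7 in the LPS group. Socs3, the feedback inhibitor of cytokine receptors, had 17531, 15259 and 17804 against 41996, 43947 and 36287 (log2 -1.27, SE 0.52, adjusted p = 0.0271). That call did not hold without 5 of the 6 libraries left out in turn. Zfp36, which encodes tristetraprolin, a protein that destabilises cytokine mRNAs, was higher with JQ1, at 22361, 22017 and 24131 against 15238, 16529 and 13687 (log2 0.59, SE 0.08). Both groups lay above LPS alone (10569 ± 1108).

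A list of BET proteins and regulators of P-TEFb, to which Myc and Serpini1 were added, had 8 of 13 tested members higher with JQ1, Serpini1 among them, and 2 higher with IL-10. The median was 0.24 (0.52 with total counts), and with 1 library left out 5 to 7 members were higher with JQ1, the 5 without LPS + JQ1 replicate 1. Brd2 had 62347, 64225 and 65932 normalised counts under JQ1 and 15801, 14103 and 13987 with IL-10 (4.39-fold, log2 2.13, SE 0.06). Its LPS level was 16509.6 ± 862. Hexim1, which inhibits P-TEFb and is a common read-out of BET inhibition, had means of 2841 and 355 (log2 3.01) and was named after its value was seen. Serpini1, a serine protease inhibitor in the same list, was low, at 12.1, 17.9 and 16.0 against 0, 1.52 and 2.70. Hexim2, an inhibitor of P-TEFb, was at 0.78 ± 0.68 under JQ1 and 9.58 ± 5.05 with IL-10.

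Transcription factors of the LPS response did not move as blocks. Among NF-kB subunits and feedback inhibitors, 8 of 18 were higher with IL-10 and 2 with JQ1, with a median of -0.19 that became 0.095 with total counts. Nfkbia, the inhibitor IkBa, read 32279, 29707 and 33016 against 36905, 35509 and 32149.6 normalised counts, with overlapping groups (log2 -0.14, SE 0.11, adjusted p = 0.310). Rel, the lymphoid subunit, was higher with JQ1, at 6521, 6574 and 6104 against 4042, 2947 and 4116 (log2 0.79, SE 0.11). Otud7b, a deubiquitinase of the pathway, was also higher with JQ1 (552 ± 45.6 against 194 ± 13.8), and Traf1, an adaptor of TNF receptors, higher with IL-10 (893 ± 84.2 against 8238 ± 1455). AP-1 and ATF factors divided into 6 higher under JQ1 and 5 higher with IL-10 of 16, with a median of -0.13 that became 0.15 with total counts. Maff, a small Maf protein, had 61.7 ± 9.96 against 514 ± 149. Fosb had 7.73, 10.5 and 8.62 against 0, 1.52 and 1.80. Junb, the list's highest gene by TPM, had 14091 ± 1321 against 16777 ± 2535 (log2 -0.25, adjusted p = 0.0770). Of 15 IRF and STAT factors, 4 were higher under JQ1 and 8 with IL-10 (median -0.58, and -0.30 with total counts). Irf4, a factor of alternative activation, was at 27.6, 26.3 and 29.5 under JQ1 and 6.77, 6.08 and 7.21 with IL-10, and Stat4 at 3.35 ± 0.99 against 20.7 ± 6.24. Irf1 did not pass (8642 ± 269 against 9734 ± 1667, log2 -0.17, 95% interval -0.69 to 0.35). Irf7, the interferon-amplifying factor, had 11598 ± 398 against 19345 ± 2069.5 and missed the threshold (adjusted p = 0.0754). Its groups were separate, as at 59.7% of all genes tested. It passed with only the 6 libraries fitted (adjusted p = 8.17e-10), with the replicate block (0.0470) and in edgeR (0.0391). It did not pass with TMM, total counts or log2(TPM + 1) (adjusted p = 0.137, 0.299 and 0.120). Among the unstimulated libraries, which share the fit, Irf7 had 788, 237 and 252 normalised counts.

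Of 17 phosphatases and SOCS proteins that end kinase signalling, 3 were higher under JQ1 and 6 with IL-10, with a median of -0.045 that became 0.24 with total counts. These counts depended on the scaling and on single libraries: with total counts they were 8 and 3, and the 3 fell to 1 without replicate 2 of either group. Dusp10 had 135, 138 and 174 normalised counts under JQ1 and 17.6, 30.4 and 27 with IL-10 (log2 2.57, SE 0.27). Dusp16 had 502, 522 and 480.1 against 4305, 4854 and 5429.5 (log2 -3.28, SE 0.12), with 1909.8 ± 103 in the LPS group. Both encode phosphatases of the stress-activated MAP kinases.

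Interferon-stimulated genes were among the most one-sided lists: 26 of 32 tested were higher with IL-10 and 6 were not called, with a median of -1.58. Isg20, an exonuclease, had 90.6, 128 and 122 normalised counts under JQ1 and 2529, 2274 and 1928 with IL-10 (log2 -4.30, SE 0.18). Rsad2, the antiviral enzyme viperin and the list's highest gene by TPM, read 151428, 180426 and 165342 against 184375, 161789 and 196976, with overlapping groups (log2 -0.13, SE 0.40, adjusted p = 0.819). Ifit2, Isg15, Mx1, Mx2 and Cmpk2 likewise did not pass, with log2 values from -0.64 (Ifit2) to -0.078 (Isg15), the latter turning to 0.20 with total counts, as Rsad2 turned to 0.15.

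Receptors by which macrophages sense and take up microbes were lower with JQ1. Of 25 Toll-like receptors, adaptors and NOD proteins, 19 were higher with IL-10 and 1 with JQ1 (median -1.58). Tlr7, a receptor for single-stranded RNA, had 151, 212 and 171 normalised counts against 3502, 2859 and 5897 (log2 -4.52, SE 0.27). Tlr1 and Tlr6, which pair with Tlr2 to bind lipopeptides, had 229.5 ± 29.8 against 3700.2 ± 699 and 160.3 ± 30.2 against 995 ± 129. Nod2, a sensor of muramyl dipeptide, had 478 ± 38.1 against 2615 ± 159. Ripk2, the kinase that acts after Nod2, was slightly higher with JQ1 (5607 ± 95.7 against 4594 ± 582, log2 0.29, SE 0.09). Cd14, the LPS co-receptor, had 27983 ± 1969.9 against 34488 ± 978 (log2 -0.30, SE 0.08), a call that was lost with total counts (adjusted p = 0.869).

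Of 21 Fc, complement and phagocytic receptors, 19 were higher with IL-10 and 2 were not called (median -2.25, and -1.96 with total counts). Fcgr2b, the inhibitory IgG receptor, had 337, 300.1 and 315 normalised counts under JQ1 and 20035, 22192 and 22599.8 with IL-10, 68.1-fold apart (log2 -6.09, SE 0.08). The activating receptors Fcgr1 and Fcgr4 had 302 ± 31.8 against 12520.3 ± 907 and 47.5 ± 12.5 against 2531 ± 336. All 3 were above LPS alone with IL-10 and below it with JQ1. Fcer1g, their shared signalling chain, differed little, at 10148 ± 361 against 13371 ± 1299 (log2 -0.40, SE 0.07), and lost its call with total counts (adjusted p = 0.206).

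Antigen presentation genes mostly followed the same side. Of 16 MHC class II and costimulatory genes, 12 were higher with IL-10 and 4 were not called (median -1.93). Cd80, a ligand of CD28, had 11.0, 12.6 and 2.46 normalised counts against 157, 56.2 and 100.1, both below LPS alone (328 ± 84.3). Pdcd1lg2 was at 0 in all 3 JQ1 libraries and at 5.41, 9.12 and 6.31 with IL-10, at least 2.05-fold lower against the floor averaged over the JQ1 libraries. Icam1, an adhesion molecule, had 54054 ± 5059 against 57435 ± 9755 (log2 -0.09, adjusted p = 0.724). Of the 10 genes of MHC class I and the immunoproteasome, 8 were higher with IL-10 and 2 with JQ1. With total counts the numbers were 6 and 2. Their summed TPM overlapped, at 11148 to 12027 under JQ1 and 11366 to 11697 with IL-10. Psmb10, an immunoproteasome subunit, had 2296 ± 166 against 5734 ± 546, whereas the heavy chain H2-K1 was higher with JQ1 (40923 ± 2134 against 29929.8 ± 3376, log2 0.45, SE 0.11). H2-K1 shares sequence with other class I genes, so its reads may be divided among them.

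Secreted and enzymatic effectors were mostly higher with IL-10. All 18 coagulation, protease and vascular genes tested were, with a median of -2.25 (-1.97 with total counts, with which 16 passed). Mmp13, a collagenase and the highest of them by TPM, had 8988, 9397 and 8659.9 normalised counts under JQ1 and 41151, 28754 and 42966 with IL-10 (log2 -2.06, SE 0.28). Of 17 lipid, nitric oxide and redox genes, 13 were higher with IL-10 and 4 were not called (median -1.21). With total counts 11 were higher with IL-10. Nos2, the inducible nitric oxide synthase, was among the least moved. It had 12318, 11912 and 13035 against 16363, 18223 and 14798 (log2 -0.41, SE 0.09, adjusted p = 1.08e-05). That call was lost with total counts (adjusted p = 0.221) and with the replicate block. Cyba, a subunit of the phagocyte oxidase, had 6704 ± 595 against 8339 ± 915, and its call too was lost with total counts (adjusted p = 0.776).

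Survival and proliferation genes were read next. In the BCL2 family, 5 of 14 were higher under JQ1 and 5 with IL-10 (median 0.14, and 0.43 with total counts). The survival proteins Mcl1 (8598 ± 165 against 15782 ± 140.4 normalised counts, log2 -0.88) and Bcl2l2 (285 ± 8.98 against 690.3 ± 40.9) were higher with IL-10, and the pro-apoptotic Bmf was higher with JQ1 (27.5 ± 4.65 against 9.13 ± 5.30, from 633 ± 71.3 without stimulation). Of 30 cell cycle and replication genes, 20 were higher with IL-10 and 1, E2f1, with JQ1 (133 ± 9.67 against 89.3 ± 14.5). With total counts these numbers were 19 and 6. The mitotic kinase gene Aurkb was at or under the floor with JQ1 (1.10, 0 and 1.23) and at 13.5, 13.7 and 17.1 with IL-10. Cdkn1a, the inhibitor p21, had the highest TPM of that list and did not pass, at 48855 ± 1713 against 50797 ± 7105 (log2 -0.06, adjusted p = 0.636), turning to 0.23 with total counts.

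Metabolic genes were higher with IL-10 in part. Of 24 sterol and fatty acid genes, 16 were higher with IL-10 and 3 with JQ1 (median -1.39). Mylip, a ubiquitin ligase induced by sterols, was higher with JQ1, at 1282, 1266 and 1183 against 401, 279.7 and 313 (log2 1.91, SE 0.10). Ch25h, cholesterol 25-hydroxylase, had 36.1 ± 5.32 against 1428 ± 115. Of 20 glycolytic genes, 10 were higher with IL-10 and 4 with JQ1 (median -0.47). With total counts 10 and 8 were (median -0.19), and without LPS + IL-10 replicate 3 the 4 fell to 2. Pfkfb3, which makes the activator of phosphofructokinase, had 799.6, 905 and 767 against 19667, 25667 and 22705 (27.5-fold, log2 -4.78, SE 0.10), with 4446 ± 299 in the LPS group. The abundant Aldoa did not pass (14195 ± 415 against 13287 ± 1840.0), although it was higher with JQ1 with TMM (adjusted p = 0.0497), with total counts (log2 0.38) and on TPM. Its relative Aldoc was slightly higher with JQ1 (log2 0.64). Lysosomal genes were 6 higher under JQ1 and 11 with IL-10 of 24, with a median of -0.15 that became 0.13 with total counts, when 10 and 8 passed. The protease Ctsl was higher with JQ1 (32262 ± 1979 against 12528 ± 1766, log2 1.36), the factor Tfec higher with IL-10 (312 ± 15.8 against 2212 ± 214), and the abundant protease Ctsd did not pass (log2 0.09) except with total counts (log2 0.37) and on TPM. Of 76 genes matched by name as respiratory chain subunits, Atp5 genes among them, 12 were higher under JQ1 and 22 with IL-10, with a median of -0.10. With total counts the numbers were 32 and 6, and the median 0.18. Atp5s (log2 2.46) and Atp5e (log2 -0.82) were at the ends of that list. Atp5s was low, at 23.9 ± 5.98 against 4.11 ± 2.25 normalised counts, with a log2 of 1.14 on log2(TPM + 1). Cox6b1, the list's highest by TPM, did not pass (log2 -0.17, adjusted p = 0.0617).

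Histone genes stood on the JQ1 side. Of 67 replication-dependent histone genes, whose mRNAs lack a poly(A) tail and are retained by the ribosomal depletion used here, 44 were higher under JQ1 and 9 with IL-10, with a median of 0.99 (1.27 with total counts). Hist1h4d, the most abundant by TPM, had 2112, 2034 and 2308 normalised counts under JQ1 and 1429, 1538 and 1002 with IL-10 (log2 0.70, SE 0.15, adjusted p = 9.92e-06). Hist1h3c was at the other end, with 11.0, 16.9 and 14.8 against 102, 88.2 and 96.5 (log2 -2.75, SE 0.32), and Hist1h1t was low, at 8.01 ± 2.66 against 0.30 ± 0.52. Near-identical copies share reads in this family, so its single members are uncertain. Of 82 cytosolic ribosomal protein genes, 31 were higher under JQ1 and 4 with IL-10 (median 0.16). With total counts 70 were higher with JQ1. Rps2 had 13157 ± 402 against 7082 ± 481 (log2 0.89), Rpl26 had 117 ± 42.7 against 252 ± 111 (log2 -1.10), and Rps29 did not pass (log2 0.07) except with total counts (log2 0.35) and on TPM.

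Each suppressor was also set against LPS alone, and these comparisons share the 3 LPS libraries. JQ1 changed 57.3% of the genes tested (8209 of 14326), and IL-10 changed 17.2% (1968 of 11448). Over all genes tested, 4718 were below and 3491 above LPS with JQ1, and 1009 below and 959 above with IL-10. Cytokines, for example, were lower than LPS in 22 of 25 with JQ1 (median -2.95) and in 12 with IL-10 (median -1.22). Chemokines were lower in 18 of 22 with JQ1 (median -1.81) and in 14 with IL-10 (median -1.19). Interferon-stimulated genes were lower in 27 of 32 with JQ1 (median -1.80) and in 2 with IL-10 (median -0.21). Among 22 IL-10-responsive genes the order turned. With JQ1, 3 were above and 13 below LPS, and with IL-10, 13 were above and 2 below.

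The 23 genes that the study discusses show the range, with 18 higher with IL-10 and 2 higher with JQ1, although they were selected on these samples and are not independent evidence of the direction. Against LPS, Il6 changed by -4.88 under JQ1 and -1.79 with IL-10 on the log2 scale, and Il27 by -4.67 and -1.22. Tnf changed by -1.94 and -1.38, and Il12b by -4.24 and -2.46, the latter not passing (adjusted p = 0.072). Genes such as Tlr1 (-4.14 and -0.12), Nod2 (-2.49 and -0.04) and Jak2 (-1.04 and -0.14) were lowered by JQ1, while their IL-10 values did not pass. Ccl2 (-0.09 and -2.04) and Rel (0.10 and -0.69) were lowered by IL-10, while their JQ1 values did not pass. Il7r, the IL-7 receptor, and Tnfsf13b, the B cell factor BAFF, were below the unstimulated level in all groups with LPS, at 38.5 ± 10.1 against 261 ± 45.4 and at 4.93 ± 1.07 against 16.8 ± 5.46 normalised counts under JQ1 and IL-10.

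**Figure D4:**
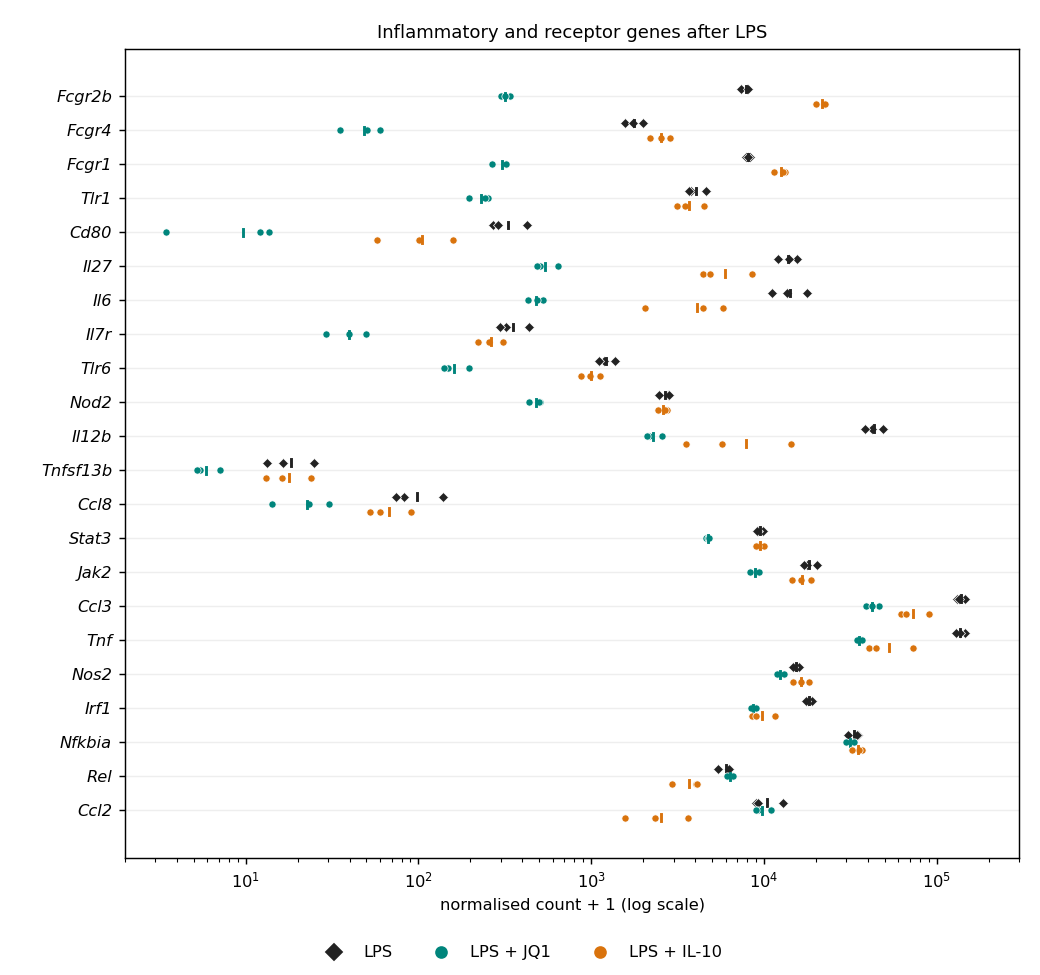
Normalised counts plus 1 on a log axis for 22 of those genes in macrophages given LPS alone or after JQ1 or IL-10, with a point for each library and a bar for each mean (n = 3), ordered by the difference between the suppressors. The Fc receptor genes at the top are far lower with JQ1 (34.2 to 59.0 for Fcgr4) than with IL-10 (2188 to 2861), and Ccl2 at the bottom is lower with IL-10 (1573 to 3657) than with JQ1 (8967 to 10914).

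A separate test asked which genes were shown to differ by less than 2-fold between the suppressors. It called 6262 of 11767 genes (53.2%), 1147 of the LPS-induced genes (46.6%) among them. The 5 of these with the highest TPM were Sdc4, Ccl4, Rsad2, B2m and Spp1, at 6454, 6535, 4569, 3426 and 4201 TPM under JQ1 and 4633, 8232, 4357, 3914 and 2436 TPM with IL-10. The proteoglycan gene Sdc4 had a log2 difference of 0.28 (95% interval 0.09 to 0.47), and Spp1, which encodes osteopontin, 0.60 (0.40 to 0.80). The chemokine Ccl4 had -0.52 (-0.83 to -0.21), and B2m, the light chain of MHC class I, -0.38 (-0.57 to -0.19). All 4 passed the main test as well. Ccl4 and B2m did not with total counts (adjusted p = 0.218 and 0.446), Ccl4 did not without LPS + IL-10 replicate 3 (adjusted p = 0.0688), and Sdc4 did not without LPS + JQ1 replicate 3 (adjusted p = 0.0540). Nfkbia (-0.36 to 0.08) and Icam1 (-0.45 to 0.27) were also shown to differ by less than 2-fold.

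A difference between JQ1 and IL-10 was also seen in the cultures that received no LPS. In the libraries without LPS, 6312 of 14006 genes differed (45.1%), 3085 higher under JQ1 and 3227 with IL-10. Its size changed with LPS at 4886 of 12727 genes (38.4%), by the interaction term over the 12 pretreated libraries. That term was above 0 for 41.4% of them with median-of-ratios scaling, 53.4% with TMM and 82.2% with total counts. The share of genes higher with JQ1 without LPS likewise moved, from 48.9% to 28.2% with total counts.

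Of the genes called for this change, the 3 highest and 3 lowest are described, among those with a mean of at least 100 normalised counts over the 12 pretreated libraries and more than 3 counts in each. All 6 kept their direction in the 3 scalings of counts. Pfkfb3 did not pass without LPS (adjusted p = 0.867), at 585, 571 and 601 normalised counts under JQ1 and 612, 572 and 537 with IL-10, and its log2 difference moved by -4.81 (SE 0.15) with LPS. Pdgfrb, a growth factor receptor of stromal cells that LPS raised from 15 ± 4.66 to 873 ± 113 in these cultures, had 20.4 ± 5.72 and 17.6 ± 0.92 without LPS. With LPS it had 36.4, 16.9 and 27.1 under JQ1 and 873, 795 and 689 with IL-10, a change of -5.07 (SE 0.35). Gm6377, a predicted gene, had 19.6 ± 5.33 and 32.5 ± 10.2 without LPS and 13.1 ± 3.10 and 852 ± 551 with it, a change of -5.28 (SE 0.76). In the other direction, Mknk2 had 6850.5 ± 265 and 2992 ± 126 without LPS, a difference already called (log2 1.2), and its difference grew by 3.64 (SE 0.14). C2cd2l grew by 3.05 (SE 0.23). Zfp422, a zinc finger gene, turned from 121 ± 18.7 and 153 ± 1.6 without LPS (log2 -0.34) to 1168, 1128 and 1163 against 139, 155 and 180.3 with it, a change of 3.18 (SE 0.17).

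Histone genes turned as a group. Without LPS, 12 of the 67 were higher under JQ1 and 37 higher with IL-10 (median -0.62), and with LPS the numbers were 44 and 9 (median 0.99). The interaction term was above 0 and past the test in 48 and below 0 in 1, against 2021 and 2865 of all genes. With total counts it was above 0 in 56, and with TMM in 49. Glycolytic genes had the interaction term below 0 in 13 of 20, although with total counts it was below 0 in 6 and above 0 in 4. Fc, complement and phagocytic receptors were higher with IL-10 in 17 of 21 already without LPS (median -1.42), and interferon-stimulated genes in 21 of 32 (median -1.17).

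**Figure D5:**
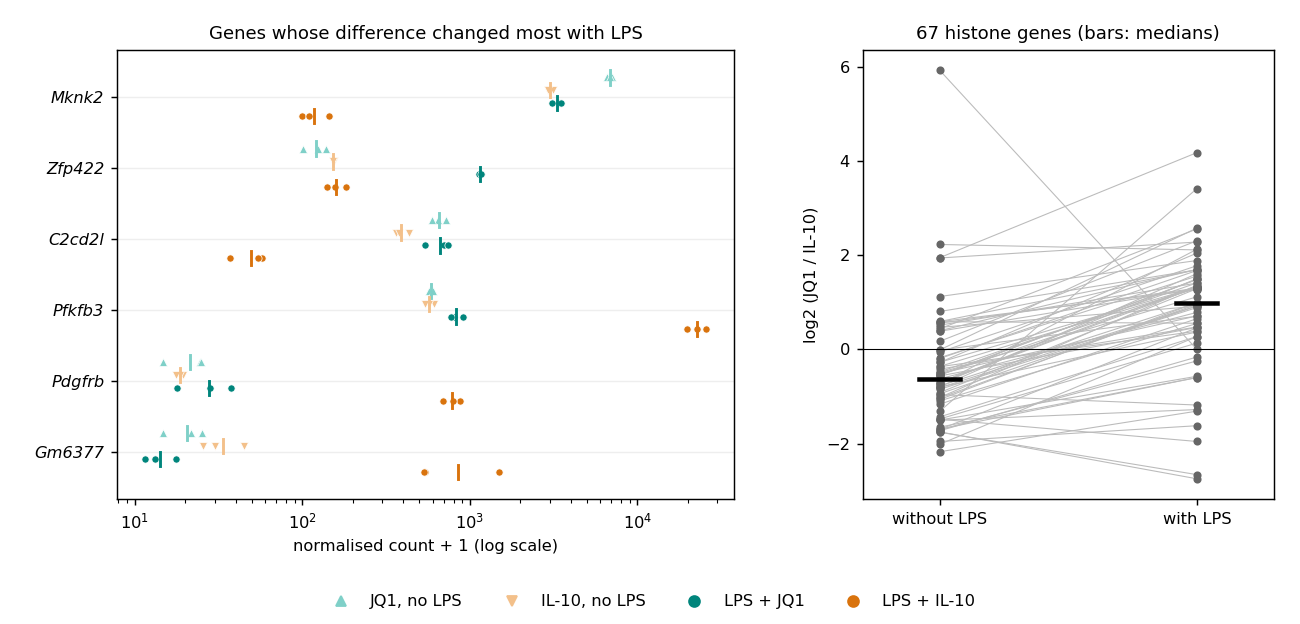
Left, normalised counts plus 1 on a log axis in the 12 pretreated libraries for the 6 genes whose difference changed most with LPS among those with a mean of at least 100 normalised counts and more than 3 counts in each library, with a point for each library and a bar for each mean (n = 3). Right, the log2 difference between JQ1 and IL-10 for 67 histone genes without and with LPS, joined by lines, whose median (bars) moves from -0.62 to 0.99.

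Gene structure was described last. In the GENCODE vM1 annotation of mm9, genes higher with JQ1 by over 2-fold had a median span of 20.7 kb and genes higher with IL-10 by over 2-fold a median of 25.1 kb, against 21.8 kb over all tested genes that could be placed (88.9%). Genes with a single exon made up 5.62% and 2.00% of these groups, against 3.02% of all tested genes. These are descriptions, with no test.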

How the data were processed

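RNA from Il10-/- BMDMs was sequenced in 18 libraries (KAPA stranded kit with ribosomal depletion, paired ends). Per the study's methods and the labels, the authors removed artefact reads with TagDust, aligned to mm9 with STAR and deposited, for each gene and library, an expected count and a TPM value from RSEM 1.2.31. RSEM was run with default settings, so strand was not used, and genes with shared sequence divide reads by estimate. The labels call the control pretreatment untreated, whereas the methods name a vehicle.

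Expected counts were rounded and tested with the DESeq2 1.42.0 Wald test (R 4.3.3) in 1 model over the 6 groups, with median-of-ratios scaling, Benjamini-Hochberg adjustment and a threshold of 0.05. The change of the difference with LPS was an interaction contrast, and differences under 2-fold were tested against a log2 limit of 1. Alternatives were TMM or total-count scaling, a filter of 10 counts in 3 libraries, the 6 libraries alone, leaving out each library, replicate number as a block, edgeR 4.0.16 and limma 3.58.1 on log2(TPM + 1) or log2(TPM + 0.1). The deposited TPM values served only these and the levels between genes. The code was tested on simulated data. Normalised counts have a floor of 3 counts, and intervals for DESeq2 values are 95%.

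The study's test had no block. Members, gene lists and tests were chosen with earlier results of these data known. Named genes were Il10, the 10 called genes with the largest difference in each direction (mean of at least 100 normalised counts, over 3 in each library, same direction in all 3 pairs), the genes the study discusses, the extreme called members and highest TPM of each list, the 3 largest changes with LPS in each direction (mean of at least 100 normalised counts over the 12 pretreated libraries, over 3 counts in each), and the 5 LPS-induced genes of highest TPM shown to differ under 2-fold. Results for some genes are not reported here.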

Additional observations from a re-analysis of the deposited data

Results flagged for a closer look

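The size of the JQ1 against IL-10 difference with LPS was not that without LPS at 4886 genes, by the interaction term of the DESeq2 fit (adjusted p under 0.05), which is what marked them here. Among genes with a mean of at least 100 normalised counts over the 12 pretreated libraries and more than 3 counts in each, the 3 largest changes above 0 were those of Mknk2 (log2 3.64), Zfp422 (3.18) and C2cd2l (3.05). The 3 largest below 0 by the same limits were those of Gm6377 (-5.28), Pdgfrb (-5.07) and Pfkfb3 (-4.81). Each of the 6 kept its sign and passed with TMM and with total counts. LPS + IL-10 replicate 3 held 1488 normalised counts of Gm6377 against 539 and 529 in the other replicates.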

How the results depend on the processing

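The number of genes called between LPS + JQ1 and LPS + IL-10 was 7927, between 6833 (only the 6 libraries) and 8100 (total counts) over the alternatives run, and from 7342 to 7631 when 1 library was left out. With the replicate block it was 7964, of which 7858 were also called without the block, and the block changed the call of 2 named genes, Irf7 (adjusted p = 0.0470 by DESeq2) and Nos2 (adjusted p = 0.630). Same-numbered samples of the compared groups share a number and a lane, and the labels tie no mouse to the number. Deviations from the group means correlated at 0.076, -0.098 and -0.17 within the 3 same-numbered pairs over 11390 genes. Of the 6 libraries, 1 correlated best with its own number. With 3 samples in each group, these correlations cannot settle whether same-numbered samples came from the same mouse. The median log2 difference of LPS-induced genes was -0.71, from -0.75 to -0.68 with 1 library left out. It was -0.61 with TMM, -0.43 with total counts, -0.47 on log2(TPM + 1), -0.49 on log2(TPM + 0.1) and -0.45 on log2(TPM + 1) with no filter. With total counts, 364 LPS-induced genes were higher with JQ1 in place of 208. Genes shown to differ by less than the limit fell from 6262 to 2260 when the limit was a log2 of 0.5, a narrower range by construction. Of the named genes, Cdkn1a reversed, to 0.23 with total counts. Total-count scaling took 8 named genes past the threshold to the side of no call and 3 the other way, and edgeR 1 and 2. The depth and 3 libraries per group limit genes near the floor, such as Csf3, Aurkb, Hexim2, Fosb and Pdcd1lg2, whose fitted log2 values depend on the model.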
